A study of Homo sapiens with 24 samples.

Results

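The mRNA of A549 cells was compared after 6 h in CAF conditioned medium and after 6 h in control medium, with 1 library for each medium. A549 is a human cell line derived from a lung adenocarcinoma, with epithelial features. The labels do not spell out CAF, which in tumour biology usually means cancer-associated fibroblast, and they do not give the source of those cells or the make-up of the control medium. Levels are RPKM, which divide a gene's reads by its length in kilobases and by the total mapped reads of the library. The genes described are those with at least 5 RPKM in either 6 h library, which were 7758 of the 22026 genes of the table, or 35.2%. Of them 6857 reached 5 RPKM in both libraries, 524 in CAF medium alone and 377 in control medium alone. The threshold of 5 RPKM cut through a continuous range. The 71 genes whose higher value lay between 5 and 5.1 RPKM had a median log2 difference of 0.10, with 1 gene past 2-fold, and the 76 genes between 4.9 and 5 RPKM had a median of 0.04, with 2 genes past 2-fold.

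The wider study, whose title names markers of epithelial-mesenchymal transition, sampled both media at 3, 6, 12, 24, 48 and 72 h. Its design text speaks of 2 biological replicates, but the deposited values hold 1 column per medium and time. A difference at 6 h therefore has no replicate check and is given without a test. The control libraries of 3, 6 and 12 h serve as a measure of how far 1 control library lies from another.

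Conditioned medium carries the factors that its source cells secreted and lacks the nutrients that they used up. Fibroblast media commonly hold cytokines of the IL-6 family, growth factors and matrix proteins, and tumour cells answer such signals through STAT3, NF-kB, MAP kinase and SMAD pathways. Within hours the transcripts of signalling feedback genes, chemokines, metabolic enzymes and ribosome assembly factors can shift, because many of these mRNAs are short-lived.

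The 6 h libraries held 26.5 M reads in CAF medium and 23.9 M in control medium, within a range of 23.9 to 40.6 M over the 12 mRNA libraries. The 10 most abundant genes took 17.8% of the summed RPKM in CAF medium and 18.6% in control medium. Among the A549 markers that were listed, 11 of 14 reached 5 RPKM, and the keratin KRT8 had 1811 RPKM in CAF medium and 1719 in control medium. Of 15 fibroblast markers only VIM, ACTA2 and S100A4 reached 5 RPKM, and A549 cells express these as well. The other 12 summed to 12.3 RPKM in CAF medium and 8.31 in control medium at 6 h, and to 11.3 to 13.3 in CAF medium and 8.31 to 10.1 in control medium over 3 to 12 h. COL1A1, a fibrillar collagen chain, made up 4.02 of this sum in CAF medium and 1.37 in control medium, while its partner chain COL1A2 had 0.02 RPKM in both. Of the immune and endothelial markers 13 of 14 were under 1 RPKM in both libraries, 4 of them at 0 in both. The part of carried-over fibroblast RNA in the results was not tested.

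At 6 h 113 genes were at least 2-fold higher in CAF medium, 1.46% of the set, and 70 were at least 2-fold lower, 0.902%. Folds are on the scale of log2(RPKM + 0.5), which understates the change of low genes. Positive log2 differences were found for 4029 genes and negative ones for 3720. The median over all 7758 genes was 0.02, and 95% of the genes lay within 0.81 of 0 in either direction. Among the 6857 genes with 5 RPKM in both libraries 39 were higher (0.569%) and 38 were lower (0.554%). The higher genes were mostly of low level, with a median of 9.35 RPKM in CAF medium and 3.64 in control medium, whereas the lower genes had a median of 5.83 RPKM in CAF medium and 17.1 in control medium. Counting error was read from the 95% counting interval of the RPKM ratio. This interval excluded 1 for 181 of the 183 genes, and both exceptions are gene models under 400 bases. The 183 genes were chosen for their difference between these same libraries, which favours that count. For the abundant chemokine gene CXCL5, with a log2 difference of only -0.05, the interval excluded 1 as well. The share over all 7758 genes is not given, so the count does not set the 183 genes apart. The split depended on the scaling. With values rescaled to TPM it was 90 higher and 91 lower, and scaled without the 10 most abundant genes it was 88 higher and 94 lower.

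**Figure D1:**
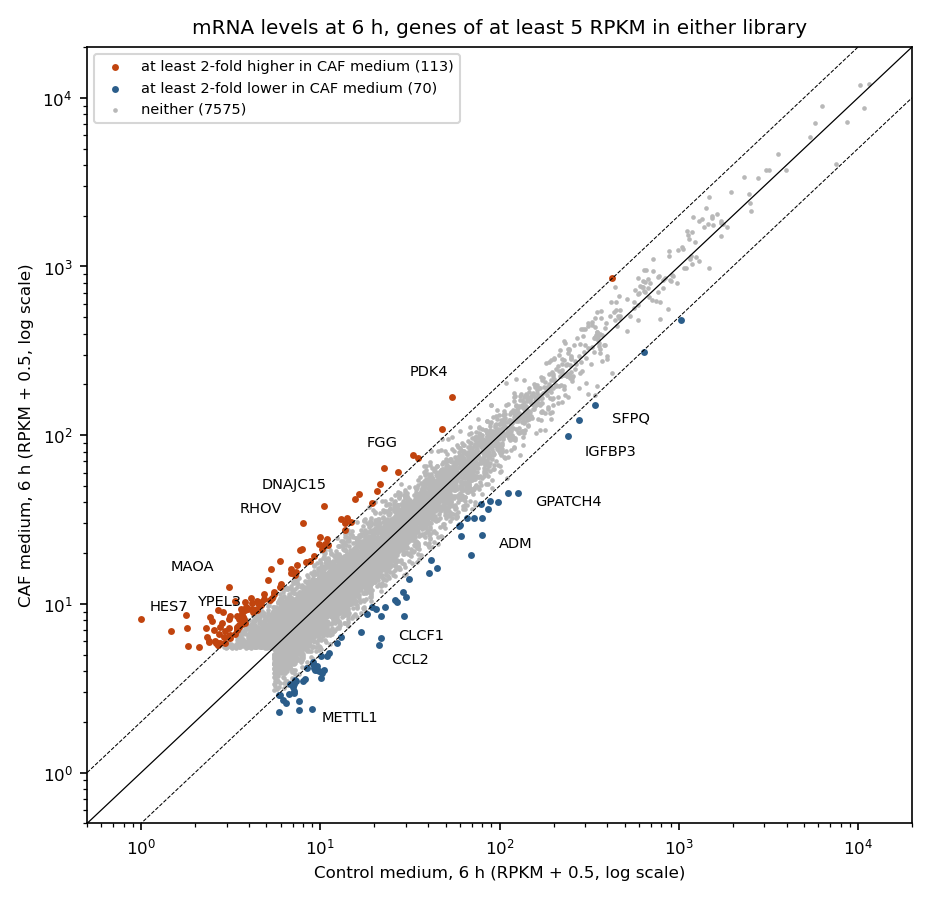
mRNA level in CAF medium (vertical) against control medium (horizontal) at 6 h, as RPKM + 0.5 on log axes, 1 point per gene and 1 library per axis. Dashed lines mark 2-fold, the 113 higher genes lie above the upper line and the 70 lower genes below the lower line, and the higher genes lie mostly at low levels.

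Libraries of 1 medium at different times were compared in the same way. Of the 7758 genes, 183 (2.36%) were past 2-fold between CAF and control medium at 6 h. Between the 6 h and 3 h controls 23 (0.296%) were past 2-fold, and 13 (0.168%) between the 6 h and 12 h controls. Of the 183 genes, 74 higher ones reached 5 RPKM in the 6 h CAF library alone and 32 lower ones in the 6 h control alone. Such entry favours the count between the media. With 5 RPKM in both 6 h libraries 39 genes were higher (0.569%) and 38 lower (0.554%), a set in which the control pairs were not counted. Between CAF libraries, 67 genes (0.864%) were past 2-fold from 3 to 6 h and 62 (0.799%) from 6 to 12 h. The 3 and 12 h CAF libraries differed in 192 genes (2.47%), which exceeds the 183 between the media at 6 h. The 3 and 12 h control libraries differed in 35 genes (0.451%). The CAF library of 6 h lay above all 3 early controls for each of the 113 higher genes. It lay below all 3 for 69 of the 70 lower genes, the exception being ALDH1A3, a retinal dehydrogenase with 3.69 RPKM in CAF medium and 7.96 in control medium at 6 h but 3.62 in control medium at 12 h. Over all 7758 genes the CAF library lay above all 3 early controls for 37.7% and below all 3 for 28.3%. At least 2-fold from each of the 3 controls were 27 higher genes (0.348%) and 17 lower genes (0.219%). These 44 include HES7, YPEL3, MAOA, DNAJC15, HDAC5 and PDK4 on the higher side, and METTL1, CCL2, CLCF1, IGFBP3, CXCL2 and SFPQ on the lower side. Of those named, HES7, YPEL3, MAOA and HDAC5 reached 5 RPKM at 6 h in CAF medium alone, and METTL1 in control medium alone. Entry into the set through the library where a gene is high favours both counts.

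**Figure D2:**
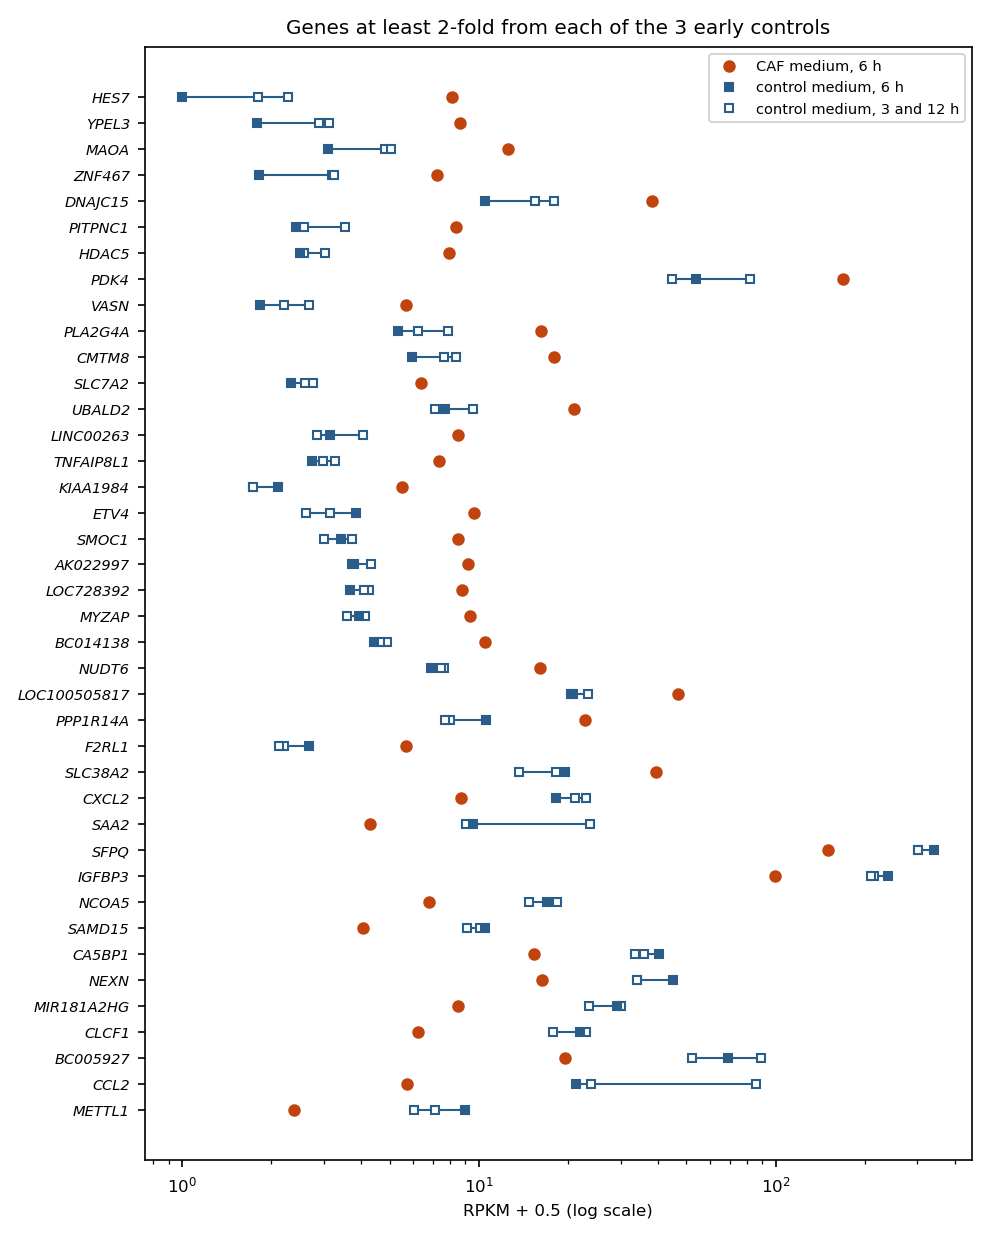
The 40 genes with models of at least 400 bases that were at least 2-fold from each early control, with the 6 h CAF library (circles), the 6 h control (filled squares) and the 3 and 12 h controls (open squares), as RPKM + 0.5 on a log axis. CAF values lie right of the controls for the 27 higher genes and left of them for the 13 lower genes.

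The largest difference was that of HES7, a transcriptional repressor of the Notch pathway that oscillates in the embryonic segmentation clock. HES7 had 7.62 RPKM in CAF medium and 0.50 in control medium at 6 h, a ratio of 15.2 with a 95% counting interval of 9.76 to 25.4. Its CAF levels at 3 and 12 h were 5.20 and 11.04 RPKM, against 1.30 and 1.77 in control medium. All 3 CAF libraries thus lay above all 3 controls. The other 4 Notch genes above 5 RPKM differed less on the log2 scale, from -0.11 for the ubiquitin ligase DTX2 to 0.51 for the repressor HES1.

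YPEL3, a yippee-like protein linked to growth arrest, had 8.15 RPKM in CAF medium and 1.29 in control medium (log2 difference 2.27). MAOA, the mitochondrial monoamine oxidase A, had 12.0 RPKM in CAF medium and 2.61 in control medium (2.01). DNAJC15, a co-chaperone of the mitochondrial import motor, had 37.7 RPKM in CAF medium and 9.98 in control medium (1.87). For MAOA the 3 early CAF libraries, at 7.93 to 12.0 RPKM, lay above the 3 controls, at 2.61 to 4.54 RPKM, and for DNAJC15 likewise, at 18.4 to 44.4 RPKM against 9.98 to 17.5 RPKM. The class IIa histone deacetylase HDAC5, which represses MEF2 targets, had 7.45 RPKM in CAF medium and 2.0 in control medium (1.67). PITPNC1, a phosphatidylinositol transfer protein, had 7.87 RPKM in CAF medium and 1.91 in control medium (1.80). PLA2G4A, the cytosolic phospholipase A2 that releases arachidonic acid, had 15.6 RPKM in CAF medium and 4.82 in control medium (1.60). G0S2, an inhibitor of the triglyceride lipase PNPLA2, had 6.44 RPKM in CAF medium and 0.96 in control medium (2.25). Against the 3 h control the difference of G0S2 was 1.14, and against the 12 h control it was 0.86, short of 2-fold.

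The 6 h control was the lowest of the 3 early controls for 87 of the 113 higher genes (77.0%), against 26.0% of all genes. It was the highest of the 3 for 37 of the 70 lower genes (52.9%), against 39.2% of all genes. Choosing genes by their difference from this library favours both counts. RHOV, a small GTPase, had 29.7 RPKM in CAF medium and 7.46 in control medium at 6 h (log2 difference 1.92), with 15.9 and 20.9 RPKM in control medium at 3 and 12 h. Against these controls the difference of RHOV was 0.88 and 0.49. A4GALT, which makes the glycolipid Gb3, had 8.47 RPKM in CAF medium and 2.36 in control medium (1.65), and 0.95 and 0.92 against the 3 and 12 h controls. The transcriptional corepressor BCORL1 (1.64 at 6 h) and the matrix glycoprotein SPARC (1.63 at 6 h) were short of 2-fold against the 12 h control, at 0.99 and 0.69.

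**Figure D3:**
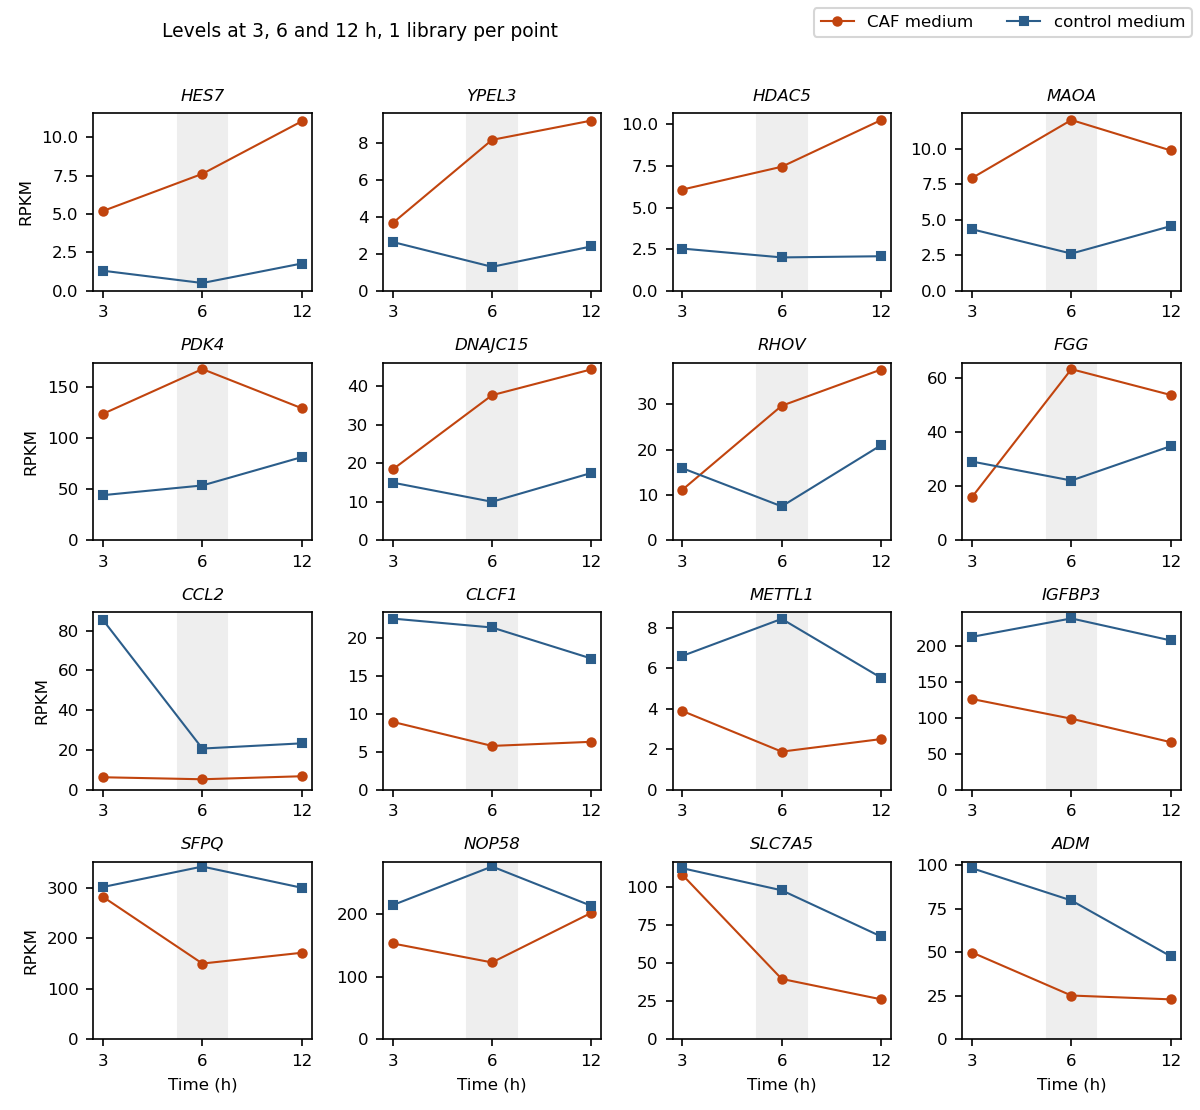
RPKM of 16 genes at 3, 6 and 12 h in CAF medium (circles) and control medium (squares), 1 library per point, with 6 h shaded. HES7, HDAC5, MAOA and PDK4 are higher in CAF medium at all 3 times and CCL2, CLCF1, METTL1 and IGFBP3 lower, while FGG and RHOV are lower in CAF medium at 3 h and higher at 6 h.

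Genes known as FOXO targets or as raised when growth factors are withdrawn were read as 1 list. All 12 members above 5 RPKM had positive log2 differences, as had 4029 of all 7758 genes. The median of the list was 0.79 against 0.02 for all genes. Past 2-fold were 5 of the 12 higher and 0 lower, against 1.46% and 0.902% of all genes. Of the 5, YPEL3, HBP1 and BCL6 passed the threshold of 5 RPKM in CAF medium alone. Among the 9 members with 5 RPKM in both libraries 2 were past 2-fold higher, PDK4 and TSC22D3, and the median was 0.72. PDK4, which phosphorylates and shuts off pyruvate dehydrogenase, had 167 RPKM in CAF medium and 53.5 in control medium (log2 difference 1.64). It was the most abundant of the 5 and stayed past 2-fold against the 3 and 12 h controls, at 1.91 and 1.04. HBP1, a repressor of cell cycle genes, had 8.76 RPKM in CAF medium and 2.18 in control medium (1.79). BCL6, a zinc finger repressor, had 7.89 RPKM in CAF medium and 3.21 in control medium (1.18). TSC22D3, the glucocorticoid-induced leucine zipper, had 22 RPKM in CAF medium and 9.35 in control medium (1.19). HBP1 and BCL6 were short of 2-fold against the 12 h control, at 0.94 for both, and TSC22D3 against the 3 and 12 h controls, at 0.55 and 0.83. The median of the list was 0.47 at 3 h and 0.21 at 12 h. TXNIP, another gene of this kind, was below the threshold, with 2.94 RPKM in CAF medium and 0.11 in control medium at 6 h.

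Sterol and fatty acid synthesis genes had positive differences for 19 of 23 members, with a median of 0.46 that was 0.25 with the 12 h control. Among the 19 members with 5 RPKM in both libraries 15 were positive and the median was 0.40. Only SREBF1, the transcription factor that drives lipid synthesis, was past 2-fold, with 9.82 RPKM in CAF medium and 4.18 in control medium (1.14). Against the 12 h control its difference was 0.84. The stearoyl-CoA desaturase SCD had 94.1 RPKM in CAF medium and 47.0 in control medium (0.99). The CAF library lay above each early control for 16 of these 23 genes, against 37.7% of all genes. Targets of glucocorticoid and cAMP signalling gave a similar count, with 12 of 14 positive, a median of 0.44 and 11 of 14 above each early control. With 5 RPKM in both libraries 9 of 11 were positive and the median was 0.43.

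Feedback genes of the MAP kinase pathway had positive differences for 9 of 12 members, with a median of 0.46 at 6 h, beside -0.17 at 3 h and 0.07 at 12 h. With 5 RPKM in both libraries 9 members remained, 6 of them positive and 0 past 2-fold, with a median of 0.33. ETV4, a PEA3 family transcription factor induced by ERK signalling, had 9.15 RPKM in CAF medium and 3.36 in control medium (1.32). It was the 1 member of the 12 past 2-fold, and it passed 5 RPKM in CAF medium alone. Its CAF level at 3 h was 2.24 RPKM, against 2.66 in control medium, and its CAF level at 12 h was 7.59 RPKM, against 2.11 in control medium. Of the early times, ETV4 was thus higher in CAF medium at 6 and 12 h. The phosphatases DUSP4 and DUSP1, which inactivate MAP kinases, differed by 0.59 and 0.65. Among the immediate early factors 8 of 15 had positive differences, with a median of 0.07 that turned to -0.07 with the 3 h control. Of the 15, 0 were past 2-fold higher and 2 lower, against 1.46% and 0.902% of all genes. JUN had 36.1 RPKM in CAF medium and 85.4 in control medium (-1.23), and FOSL1 had 28.4 RPKM in CAF medium and 58.9 in control medium (-1.04). Both encode AP-1 subunits. Neither kept that size against the 12 h control, at -0.83 for JUN and -0.07 for FOSL1.

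NF-kB targets and cytokines were mostly lower. NF-kB is held in the cytoplasm by inhibitors until a signal such as TNF or IL-1 releases it, and it then switches on chemokines and its own inhibitors. Of 24 members 21 had negative differences, as had 3720 of all 7758 genes, and the median was -0.45. Past 2-fold were 0 higher and 4 lower, against 1.46% and 0.902% of all genes. The CAF library lay below each early control for 20 of the 24, against 28.3% of all genes. Among the 17 members with 5 RPKM in both libraries 15 were negative, 2 were past 2-fold lower and the median was -0.34. CCL2, the monocyte chemoattractant, had 5.21 RPKM in CAF medium and 20.7 in control medium at 6 h (-1.89). Its control level was far higher at 3 h, so that the log2 difference of CCL2 was -3.67 at 3 h and -1.72 at 12 h. CCL2 levels in CAF medium were 6.22 and 6.73 RPKM at those times, against 85.3 and 23.3 in control medium. CXCL2, a neutrophil chemokine, had 8.20 RPKM in CAF medium and 17.7 in control medium (-1.06). NFKB1, which encodes the p105 precursor of the p50 subunit, had 2.97 RPKM in CAF medium and 7.49 in control medium (-1.20). LIF, an IL-6 family cytokine, had 3.02 RPKM in CAF medium and 6.75 in control medium (-1.04). CCL2 and CXCL2 were past 2-fold against all 3 early controls, whereas NFKB1 and LIF were at -0.83 and -0.86 against the 12 h control. The most abundant chemokines differed less. CXCL5 had 657 RPKM in CAF medium and 681 in control medium (-0.05), and CXCL1 had 107 RPKM in CAF medium and 179 in control medium (-0.74). Reads may be shared between CXCL1, CXCL2 and CXCL3, whose sequences are closely alike.

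The promoters of these chemokines and of NFKB1 are shown because all 4 genes were lower at 6 h and hold the NF-kB motif near the start. CXCL3, added after its values were seen, had 2.72 RPKM in CAF medium and 5.41 in control medium (-0.88). The motif was searched as GGGANNNNCC on both strands in the 250 bases before each start, in RefSeq promoters of GRCh38.p14. Capitals mark the motif, in the direction of the gene. The windows are chr4:74099239-74099296 (minus strand) for CXCL2, chr4:73869291-73869348 (plus) for CXCL1, chr4:74038734-74038791 (minus) for CXCL3 and chr4:102501286-102501343 (plus) for NFKB1.
CXCL2: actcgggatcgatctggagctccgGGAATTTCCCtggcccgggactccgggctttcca
CXCL1: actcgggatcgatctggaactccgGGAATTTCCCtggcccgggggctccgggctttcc
CXCL3: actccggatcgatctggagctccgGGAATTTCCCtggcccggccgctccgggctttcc
NFKB1: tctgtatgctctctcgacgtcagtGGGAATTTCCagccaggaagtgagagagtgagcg
The 3 chemokine windows carry the same 10 letters, as the reverse complement of the searched motif, and NFKB1 carries its own match on the forward strand. The motif was found in 12 of the 19 NF-kB list members with a promoter entry (63.2%), in 28.0% of the 6368 matched genes of the 6 h set and in 22.1% of all 27305 promoters. The list was made of NF-kB targets and cytokines, so its share describes how it was made and not the 6 h differences. Among matched genes past 2-fold the motif was found in 27 of 90 higher (30.0%) and 11 of 43 lower genes (25.6%). A match describes the letters and not binding.

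Acute phase genes and STAT3 targets differed in both directions. IL-6 family cytokines signal through gp130 to STAT3, which in the liver raises fibrinogen and serum amyloid. Of 18 members 9 had positive and 9 negative differences. Their median of 0.04 turned to -0.03 when values were scaled without the 10 most abundant genes. Past 2-fold were 5 higher and 2 lower members, against 1.46% and 0.902% of all genes. Among the 16 members with 5 RPKM in both libraries 4 were past 2-fold higher and 1 lower. All 3 fibrinogen chains were among the higher ones. FGG, the gamma chain, had 63.3 RPKM in CAF medium and 22.1 in control medium (1.50). FGB, the beta chain, had 44.0 RPKM in CAF medium and 15.9 in control medium (1.44). FGA, the alpha chain, had 51 RPKM in CAF medium and 21.03 in control medium (1.26). At 3 h the sign was the opposite for all 3 chains, with FGG at -0.84, FGB at -0.50 and FGA at -0.65, and at 12 h it was positive again, between 0.51 and 0.62. The summed level of the 3 chains was 49.9, 158 and 138 RPKM in CAF medium at 3, 6 and 12 h, against 80.3, 59.0 and 91.4 RPKM in control medium. Against the 12 h control all 3 chains were short of 2-fold, at 0.85 for FGG, 0.63 for FGB and 0.83 for FGA. Against the 3 h control FGB and FGA were also short of it, at 0.94 and 0.83, and FGG was at 1.11.

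PIM1, a kinase gene induced by STAT3, had 9.81 RPKM in CAF medium and 3.32 in control medium (1.43), and CEBPB, a transcription factor of the acute phase, had 73.1 RPKM in CAF medium and 34.8 in control medium (1.06). Both were short of 2-fold against the 3 and 12 h controls, at 0.57 and 0.92 for PIM1 and 0.86 and 0.65 for CEBPB. CEBPB was at 0.98 when scaled without the 10 most abundant genes. On the lower side stood CLCF1, itself a ligand of the IL-6 family, with 5.75 RPKM in CAF medium and 21.3 in control medium (-1.80). The 3 early CAF levels of CLCF1, 5.75 to 8.91 RPKM, lay under its 3 controls, 17.3 to 22.5 RPKM. SAA2, a serum amyloid A gene nearly identical to SAA1 and therefore uncertain in its reads, had 3.79 RPKM in CAF medium and 9.06 in control medium (-1.16). STAT3 itself had 29.3 RPKM in CAF medium and 29.8 in control medium, and its feedback inhibitor SOCS3 had 10.4 RPKM in CAF medium and 11.2 in control medium.

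The fibrinogen promoters are shown because the 3 genes, which lie together on chromosome 4, had like differences at 6 h. Chosen after the values were seen, the IL-6 response letters CTGGGAA were searched on both strands and can overlap the NF-kB motif, since both hold GGGA. They were found in 2 of the 3 genes, at chr4:154562844-154562898 (plus strand) for FGB and chr4:154612787-154612841 (minus) for FGG, and in 9.30% of all promoters.
FGB: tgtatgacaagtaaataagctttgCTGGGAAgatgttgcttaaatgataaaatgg
FGG: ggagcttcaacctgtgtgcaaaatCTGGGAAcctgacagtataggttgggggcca
The capitals mark CTGGGAA in the direction of the gene, 112 to 106 bases before the start in FGB and 161 to 155 bases before it in FGG. The C/EBP letters TTGCNNAA were likewise found in 2 of the 3 genes, and in 9.13% of all promoters. The FGB window holds them too, unmarked. Of the other motifs searched, those of NF-kB, STAT and HNF1 were each found in 1 of the 3 genes.

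Ribosome assembly and polyamine genes of the MYC list were mostly lower. MYC drives the synthesis of ribosomal RNA, its processing and the enzymes of polyamine supply. Of 30 members 24 had negative differences, with a median of -0.45, and 22 lay below each early control, against 28.3% of all genes. Among the 27 members with 5 RPKM in both libraries 22 were negative and the median was -0.43. Of the 30 members 2 were past 2-fold higher and 4 lower, against 1.46% and 0.902% of all genes. The lower ones were NOP58, UTP20, ODC1 and RRP12. NOP58, a core protein of box C/D small nucleolar particles, had 123 RPKM in CAF medium and 276 in control medium (-1.17). UTP20, part of the small subunit processome, had 3.67 RPKM in CAF medium and 8.68 in control medium (-1.14). RRP12, a ribosome export factor, had 9.14 RPKM in CAF medium and 19.1 in control medium (-1.02). The rate-limiting polyamine enzyme ODC1 had 40.0 RPKM in CAF medium and 88.0 in control medium (-1.13), while SAT1, which acetylates polyamines for export and breakdown, had 850 RPKM in CAF medium and 424 in control medium (1.003). Each of the other scalings tried put SAT1 short of 2-fold, between 0.85 and 0.98. MXI1, an antagonist of MYC, had 6.73 RPKM in CAF medium and 2.94 in control medium (1.07). MYC itself had 34.5 RPKM in CAF medium and 37.4 in control medium (-0.11). The 6 genes past 2-fold were short of it against both other early controls, with sizes from 0.54 for RRP12 at 3 h to 0.91 for MXI1 at 3 h. The median of the list stayed negative, at -0.20, with the 12 h control.

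GPATCH4, a G-patch protein of the nucleolus, had 44.8 RPKM in CAF medium and 126 in control medium (-1.49), and it was just short of 2-fold against the 12 h control. METTL1, the catalytic subunit of the enzyme that places 7-methylguanosine in tRNA, had 1.88 RPKM in CAF medium and 8.45 in control medium, the lowest log2 difference of the set (-1.91). Its ratio was 0.223, with a 95% counting interval of 0.167 to 0.293. WDR4, the partner subunit of METTL1, had 3.09 RPKM in CAF medium and 7.70 in control medium (-1.19). METTL1 was past 2-fold against all 3 early controls, while WDR4 was at -0.59 and -0.65 against those of 3 and 12 h. All 7 tRNA methyltransferase genes above 5 RPKM had negative differences, with a median of -0.44 that was -0.12 with the 12 h control. However, this list was set up after the values were seen, and METTL1 and WDR4 passed 5 RPKM in control medium alone. The 4 members with 5 RPKM in both libraries were all negative, with 0 past 2-fold and a median of -0.39. MIR181A2HG, the host transcript of a miR-181a gene, had 8.03 RPKM in CAF medium and 28.7 in control medium (-1.77) and was past 2-fold against all 3 early controls.

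Splicing factors of the SR family and their partners, also listed after the values were seen, had 14 of 16 negative differences, with a median of -0.58 that was -0.26 with the 12 h control. Past 2-fold were 0 higher and 4 lower, against 1.46% and 0.902% of all genes. SFPQ, a paraspeckle protein, had 150 RPKM in CAF medium and 342 in control medium (-1.19). SRSF6 had 24.6 RPKM in CAF medium and 60.8 in control medium (-1.29). SRSF3 had 28.9 RPKM in CAF medium and 60.0 in control medium (-1.04), and SRSF7 had 31.7 RPKM in CAF medium and 65.4 in control medium (-1.03). These regulators of exon choice are themselves subject to splicing-coupled decay. At 3 h SFPQ and SRSF3 differed by -0.10 and -0.07 only, with SFPQ at 281 RPKM in CAF medium and 301 in control medium. SFPQ alone of the 4 was past 2-fold against all 3 early controls.

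Cytosolic ribosomal protein genes were on the other side of 0 from the assembly factors. Of 77 members, found by name after the values were seen, 75 had positive differences and 0 were past 2-fold, with a median of 0.38 at 6 h, -0.22 at 3 h and 0.18 at 12 h. The CAF library lay above each early control for 48 of the 77, against 37.7% of all genes. With the 3 h control in place of that of 6 h the median was 0.08. The summed level of the 78 genes in the table was 73603 RPKM in CAF medium and 55521 in control medium at 6 h, where the 6 h control was the lowest of the 3 early controls, the others being 65708 and 70612 RPKM. These gene models are short, with a median of 1072 bases, and many have near-identical processed copies in the genome. When all genes were cut into 5 equal bins of length, 56 of the 77 fell in the shortest bin, whose 1496 other genes had a median of 0.10, and the longest bin had -0.03. The part of gene length in the ribosomal protein result was not tested.

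The list of ATF4 targets and amino acid response genes was split, with 12 of 27 differences positive. Past 2-fold were 2 genes higher and 3 lower, against 1.46% and 0.902% of all genes. Among the 22 members with 5 RPKM in both libraries 2 were higher and 2 lower. The median of the list, -0.14, turned to 0.14 with the 12 h control. SLC7A5, the light chain of the LAT1 transporter of large neutral amino acids, had 39.5 RPKM in CAF medium and 97.6 in control medium (-1.30), but 108 RPKM in CAF medium and 112 in control medium at 3 h. The cystine carrier SLC7A11 had 4.38 RPKM in CAF medium and 9.57 in control medium (-1.05), and the stress factor ATF5 had 9.80 RPKM in CAF medium and 26.4 in control medium (-1.39). SLC38A2, a transporter of small neutral amino acids that cells raise when amino acids are scarce, was higher instead, with 39.1 RPKM in CAF medium and 19.0 in control medium (1.02). SLC38A2 was past 2-fold against all 3 early controls, but short of it scaled to TPM, at 0.96, and without the 10 most abundant genes, at 0.94. Against the 12 h control SLC7A5 was at -0.76, SLC7A11 at -0.57 and ATF5 at -0.92.

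IGFBP3, a secreted binder of insulin-like growth factors, had 99.1 RPKM in CAF medium and 239 in control medium (-1.27), and its early CAF levels, 66.3 to 127 RPKM, lay under its controls, 208 to 239 RPKM. ADM, the vasodilator peptide adrenomedullin and a hypoxia target, had 25.04 RPKM in CAF medium and 79.7 in control medium (-1.65). It was the 1 gene past 2-fold among 28 hypoxia and glycolysis genes, 21 of which had negative differences with a median of -0.24. CYP1B1, a cytochrome P450 regulated by the aryl hydrocarbon receptor, had 10.5 RPKM in CAF medium and 29.4 in control medium (-1.45). In control medium ADM and CYP1B1 were lower at 12 h than at 6 h, and against the 12 h control ADM differed by -0.91 and CYP1B1 by -0.60. HSPA8, the constitutive cytosolic HSP70 chaperone, had 482 RPKM in CAF medium and 1032 in control medium (-1.10), the highest level among the 70 lower genes. Against the 3 h control HSPA8 was short of 2-fold, at -0.65, and against the 12 h control it was at -1.36.

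Among markers of epithelial and mesenchymal state few genes were past 2-fold at 6 h. Of 20 mesenchymal genes 15 had positive differences, with a median of 0.19 that turned to -0.01 with the 12 h control, and SPARC and ITGA5 were past 2-fold higher. SPARC had 9.87 RPKM in CAF medium and 2.86 in control medium, and ITGA5, the alpha subunit of the fibronectin receptor, had 18.7 RPKM in CAF medium and 8.69 in control medium (1.06). SPARC was at 1.05 against the 3 h control and 0.69 against that of 12 h. ITGA5 was at 0.64 against the 12 h control, and at 0.99 without the 10 most abundant genes. The intermediate filament gene VIM, vimentin, had 510 RPKM in CAF medium and 459 in control medium (0.15). Of 12 epithelial genes 6 had positive differences, with a median of -0.02, and the tight junction gene CLDN1 was past 2-fold lower, with 4.42 RPKM in CAF medium and 10.4 in control medium (-1.15). CLDN1 was at -0.90 and -0.48 against the 3 and 12 h controls. The lists of 32 DNA replication and 32 mitosis genes held no gene past 2-fold, with medians of -0.33 and -0.09. The replication median was 0.001 against the 12 h control. Of 16 cyclin and CDK inhibitor genes 1 was higher and 1 lower, against 1.46% and 0.902% of all genes. CDKN2D had 5.55 RPKM in CAF medium and 2.09 in control medium (1.22), and CCNE2 had 1.79 and 5.42 RPKM (-1.37). Among the 12 with 5 RPKM in both libraries 0 were past 2-fold.

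**Figure D4:**
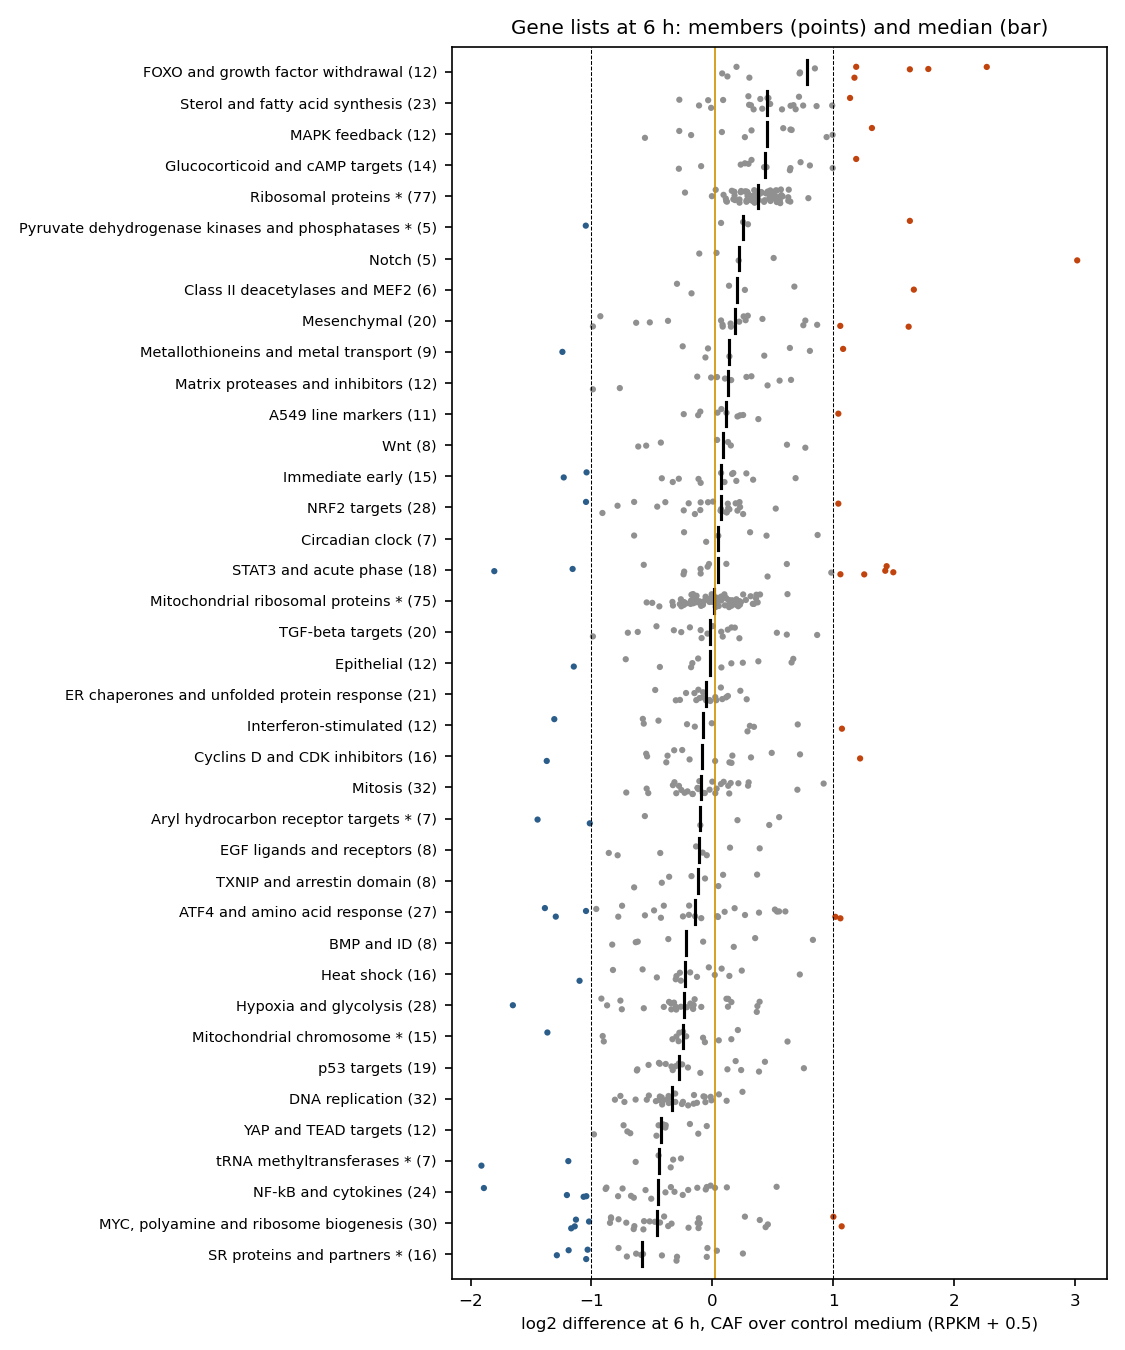
log2 differences at 6 h, CAF over control medium, for the members (points) and median (bar) of each list with at least 5 members above 5 RPKM. The list of zinc finger genes named ZNF is left out. The count of members is in brackets, an asterisk marks lists set up after the values were seen, the vertical line marks the median of all genes (0.02), and dashed lines mark 2-fold. The FOXO list lies highest and the SR protein list lowest.

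The same genes were then read at the neighbouring times, which share no library with 6 h. At 3 h 46 of the 7758 genes were past 2-fold higher (0.593%) and 71 lower (0.915%), and at 12 h 129 were higher (1.66%) and 115 lower (1.48%). Of the 113 genes higher at 6 h, 93 were also above control at 3 h and 112 at 12 h, with 19 and 45 past 2-fold. Of the 70 lower genes, 66 were also below control at 3 h and 67 at 12 h, with 16 and 24 past 2-fold. For comparison, 4537 of all 7758 genes were above control at 3 h and 3683 at 12 h, the rest being below or equal. The median log2 difference of the higher genes was 0.59, 1.19, 0.84, 0.90, 0.38 and 0.07 at 3, 6, 12, 24, 48 and 72 h, and that of the lower genes was -0.60, -1.20, -0.80, -0.62, -0.49 and -0.15. Both medians were largest at 6 h, where the genes had been chosen, and lay near 0 at 72 h. Across the 7758 genes, which are not independent replicates, the 6 h difference had a Pearson correlation of 0.42 with that of 3 h, 0.56 with 12 h and 0.66 with 24 h.

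Past 2-fold at 6 h while under 0.5 on the log2 scale at both 3 and 12 h, or past 2-fold the other way there, were 9 higher (0.116%) and 7 lower genes (0.0902%). S100A9, a calcium-binding protein of the calprotectin dimer, was the 1 gene that turned. It had 6.68 RPKM in CAF medium and 2.61 in control medium at 6 h (1.21), but 0.77 RPKM in CAF medium and 4.56 in control medium at 3 h (-1.99). CD55, which protects cells from complement, had 76.1 RPKM in CAF medium and 32.3 in control medium at 6 h (1.22). At 3 h CD55 had 31.2 RPKM in CAF medium and 38.6 in control medium, and at 12 h it had 46.6 RPKM in CAF medium and 34.9 in control medium. ST3GAL5, the GM3 ganglioside synthase, had 23.7 RPKM in CAF medium and 10.3 in control medium (1.16). On the lower side NEXN, an actin-binding protein, had 15.8 RPKM in CAF medium and 44.5 in control medium (-1.46), and KIRREL3, a cell adhesion molecule, had 3.38 RPKM in CAF medium and 9.70 in control medium (-1.39). NOP58 and RRP12 also belong to these 7. The CAF library of 6 h was lower for NEXN than those of 3 and 12 h, at 26.2 and 27.8 RPKM, while its control was higher at 6 h than at 3 and 12 h, at 33.7 and 33.5 RPKM. Later times held further differences for some of these genes. NEXN was at -1.36 at 24 h and -1.24 at 48 h, KIRREL3 at -1.11 at 24 h and CD55 at 1.22 at 48 h.

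**Figure D5:**
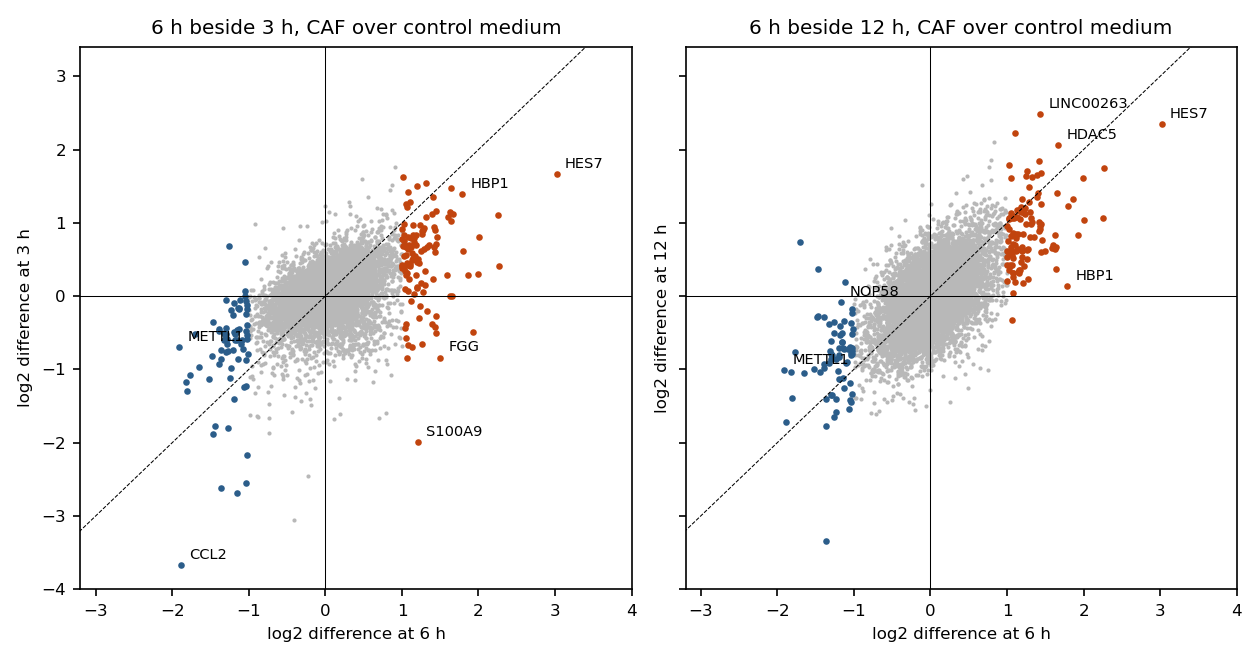
log2 difference at 3 h (left) and 12 h (right), CAF over control medium, against that at 6 h, 1 point per gene, with the genes past 2-fold at 6 h in colour (higher to the right, lower to the left) and the dashed line marking equal differences. Most coloured points lie nearer to 0 than the dashed line, and S100A9 and FGG lie below 0 at 3 h.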

How the data were processed

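Polyadenylated RNA of A549 cells was sequenced with directional libraries, per the labels' protocols. The authors deposited RPKM, rounded to 2 decimals, beside a model length for every gene. The tools TopHat2 and edgeR and the build hg19 are named per the submitters' processing notes, without versions. How reads were counted, whether strand was used, which annotation served and how replicates were joined is not given in the sources used here, so overlapping, antisense and near-identical genes cannot be told apart. Columns were matched to samples through the code in each description, and 0 value columns were left without a sample.

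Values were analysed in Python 3.11.15 with numpy 2.4.6, pandas 2.3.3 and scipy 1.17.1, and drawn with matplotlib 3.10.9. Differences are log2 of (CAF + 0.5) over (control + 0.5) RPKM, and genes at or past 1 in size are called 2-fold. Depth was recovered from the steps between low values of gene models under 400 bases, where 100% of the 51 to 100 values checked per library were whole within 0.1 read. Clopper-Pearson intervals at 95% address counting error only, since 1 library per medium shows no spread between replicates. They take reads as independent, which PCR duplicates are not, so they can be too narrow even for that error. No significance test was run.

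The genes, 35 lists, 10 lists added later and the rule for named genes were chosen with earlier results of these data known. The rule took the 15 largest differences each way in models of at least 400 bases, the 10 largest each way with 5 RPKM in both libraries, list members past 2-fold with the 4 most abundant of each list, the 10 largest differences that 3 and 12 h lacked or turned, and the most abundant genes. CXCL3, STAT3, SOCS3, TXNIP, COL1A1, COL1A2 and the genes at least 2-fold from each early control were added afterwards. Promoter sequences are those of RefSeq, and 8 motifs were searched.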

Additional observations from a re-analysis of the deposited data

Results flagged for a closer look

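For 9 genes the CAF over control difference was past 2-fold one way at 6 h and past 2-fold the other way at another time. None of these reversals was tested, since each time has 1 library per medium. S100A9 was 3.20 higher on the log2 scale at 6 h than at 3 h. JUN at 6 h lay at -2.54 relative to 48 h, and IL32, a cytokine, at -2.39 relative to 48 h. ADM at 6 h lay at -2.69 relative to 48 h and at -2.66 relative to 72 h. BC005927, a transcript known by its clone name, lay at -3.68 relative to 48 h. The other 4 are gene models under 400 bases, whose reads can belong to an overlapping gene. SNORD104 lay at -2.36 and the septin 9/TNRC6C fusion at -2.86 relative to 24 h, and MIR548G at -2.48 and DQ597485 at -2.87 relative to 72 h.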

How the results depend on the processing

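Counts of genes past 2-fold, 113 higher and 70 lower, moved with the fold bound, the filter and the control. Without a filter there were 328 higher and 151 lower genes, with 1 RPKM in either library 293 and 138, with 10 RPKM in either 49 and 41, and with 5 RPKM in both 39 and 38. A bound of 1.5-fold gave 572 and 397 genes, and 3-fold gave 17 and 7. These follow from which genes pass. With the 12 h control in place of that of 6 h there were 57 higher and 31 lower genes, of which 38 and 19 were shared with the main counts, and the mean of the 3 early controls gave 63 higher and 53 lower. The cause was not tested. With the 3 h control there were 85 and 95. ALDH1A3 reversed to 0.0243 with the 12 h control. Of 87 named genes past 2-fold, 62 stayed so with the mean control, 58 with the 3 h and 31 with the 12 h control. Other pseudocounts and scalings kept both counts within 1.5 times, with 88 to 139 higher and 58 to 94 lower genes. Scaled to TPM or without the 10 most abundant genes, CEBPB, ITGA5, SLC38A2, AKR1C1, SAT1 and ZNF277 were short of 2-fold. Among list medians, those of YAP targets (-0.42) and p53 targets (-0.28) turned to 0.06 and 0.08 with the 12 h control, those of ATF4 targets (-0.14) and mesenchymal genes (0.19) to 0.14 and -0.01, and those of mitosis (-0.09) and heat shock (-0.22) to 0.25 and 0.05 with the 3 h control. No paired analysis was possible because each medium has 1 library at 6 h.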
